A study of Mus musculus with 3 samples.

Results

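Oxidative phosphorylation is the last stage of respiration, in which electrons from NADH and succinate pass along the complexes of the inner mitochondrial membrane and the proton gradient they build drives ATP synthase. The genes described here are the nuclear ones whose mouse symbol starts with Nduf, Uqcr or Atp5, together with Sdha, Sdhb, Sdhc and Sdhd, taken from the protein-coding genes of GENCODE M21. They numbered 75 of the 53342 genes counted, and a second Ensembl entry named Atp5o that meets the same rule is not analysed here. The rule covers complexes I, II, III and V and factors that help to assemble complex I. It leaves out most of complex IV and the subunits encoded by mitochondrial DNA, which were not analysed here.

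RNA was measured by bulk sequencing of lung from 3 male C57Bl/6 mice, named mouse 4, 5 and 6 after the last digit of their labels. All 3 had been exposed through the trachea to microparticles of Mycobacterium abscessus (50 µL, equal to 1000000 bacteria), a challenge used to raise granulomas. They were then given MIA-602, which blocks the receptor for growth hormone-releasing hormone, under the skin each day for 3 weeks (5 µg a day). The mice form 1 group, and no untreated or unchallenged lung was analysed here, so the values describe levels and their spread between mice and no effect of either agent. The libraries of mice 4, 5 and 6 held 43845715, 35674761 and 31579465 counts. A level is a CPM value, counts scaled to a library of 1000000 with TMM factors, and is listed for mice 4, 5 and 6 in that order or as the mean ± SD (n = 3 mice). Lung markers were abundant in each mouse (Sftpc, the surfactant protein of alveolar type 2 cells, was at 14532 CPM or more). In bulk tissue, fewer cells of a type and less RNA per cell cannot be told apart.

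All 75 genes were expressed in every lung, at 1 CPM or more, a level reached by 28.5% of all genes counted. Together they held 0.708% of the counts of mouse 4 (95% Wilson interval 0.705 to 0.710%), 0.681% in mouse 5 (0.678 to 0.684%) and 0.708% in mouse 6 (0.705 to 0.711%). These intervals cover counting error only. Levels of different genes were compared per kilobase of exon, since longer transcripts yield more reads. Length is the union of all annotated exons of a gene unless the principal transcript, an alternative chosen after seeing the data, is named. The choice matters for single genes, since the principal transcript raised the level of 39 of the 75 genes by over 1.5 times and that of Atp5l by 11.8 times. The 5 highest by the union of exons were Ndufa2 at 202, Ndufa1 at 196, Uqcrh at 192, Atp5k at 142.8 and Uqcr10 at 142.7 CPM per kilobase (means of 3 mice), small subunits of complexes I, III and V. By principal transcript they were Uqcrh at 433, Atp5l at 365, Atp5e at 259, Atp5h at 254 and Atp5k at 237 CPM per kilobase, so only Uqcrh and Atp5k were among the 5 highest with both lengths. The lowest by the union of exons were Ndufb2 at 1.84 ± 0.124, Ndufaf2 at 3.67 ± 0.443 and Ndufaf6 at 3.98 ± 0.214 CPM per kilobase, of which the last 2 are assembly factors. By principal transcript Ndufb2 at 2.37 and Ndufaf6 at 4.55 were again the lowest, and Ndufaf2 stood at 16.1 CPM per kilobase. All genes tested had a median of 4.43 CPM per kilobase.

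**Figure D1:**
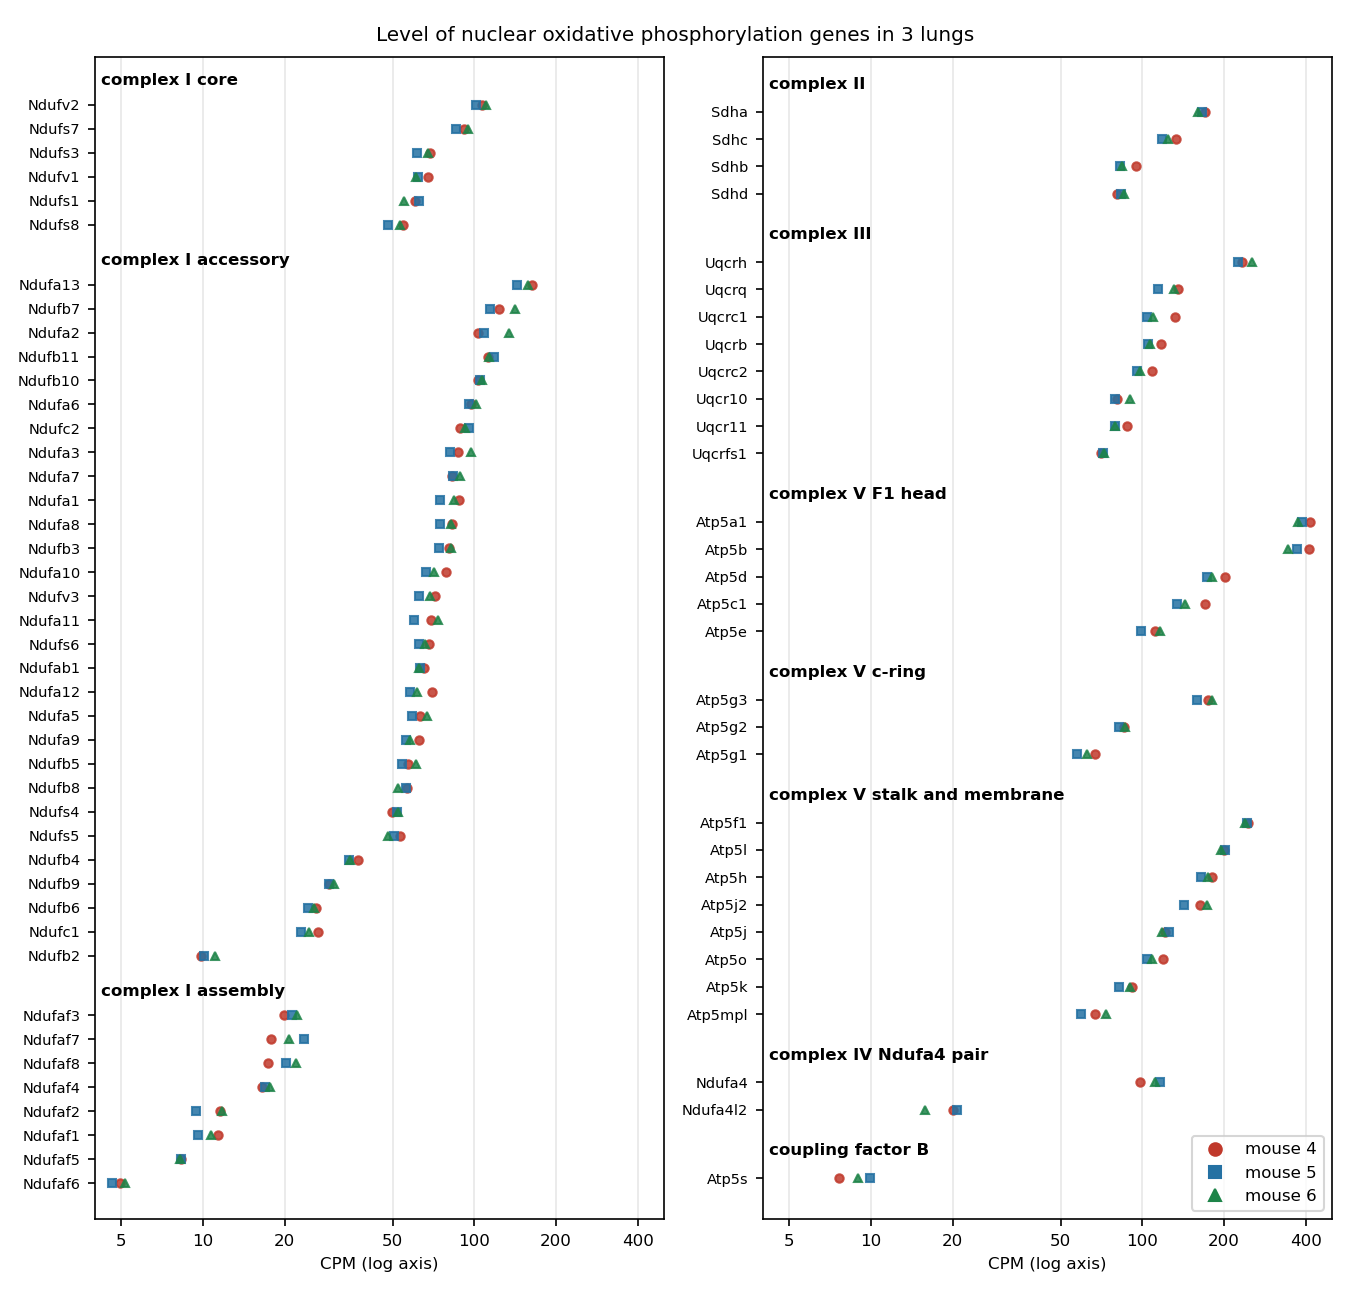
CPM (log axis) of 74 of the 75 genes, 1 row per gene grouped by role, with 1 symbol per mouse. The assembly factors lie between 4.65 and 23.5 CPM, and the symbols of the 3 mice lie close together in each row.

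By complex, complex III stood highest per kilobase, with subunit medians of 104, 91.0 and 96.4 CPM per kilobase in mice 4, 5 and 6. Complex V followed with 61.9, 57.8 and 63.2, complex I with 44.8, 41.5 and 44.9 over 36 subunits, and complex II with 41.8, 38.5 and 38.6. The 8 complex I assembly factors stood at 4.85, 5.53 and 5.27 CPM per kilobase. This order was the same in each of the 3 mice. The median complex I subunit lay 8.42 ± 0.872-fold above the median assembly factor within a mouse (SD, n = 3), and the complex V median 1.39 ± 0.0140-fold above that of complex I (2.11 ± 0.0572-fold by principal transcript). Complexes I and II were close, at a ratio of 0.907 ± 0.0406 for complex II over complex I. The order of complexes III and V depended on the lengths used: with the principal transcript of each gene complex V stood at 155 and complex III at 132 CPM per kilobase. That of complexes I and II depended on the summary. With means of log2 levels complex II stood at 44.8 and complex I at 39.2 CPM per kilobase. With no division by length complex V stood at 155, complex II at 107, complex III at 105 and complex I at 66.8 CPM.

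**Figure D2:**
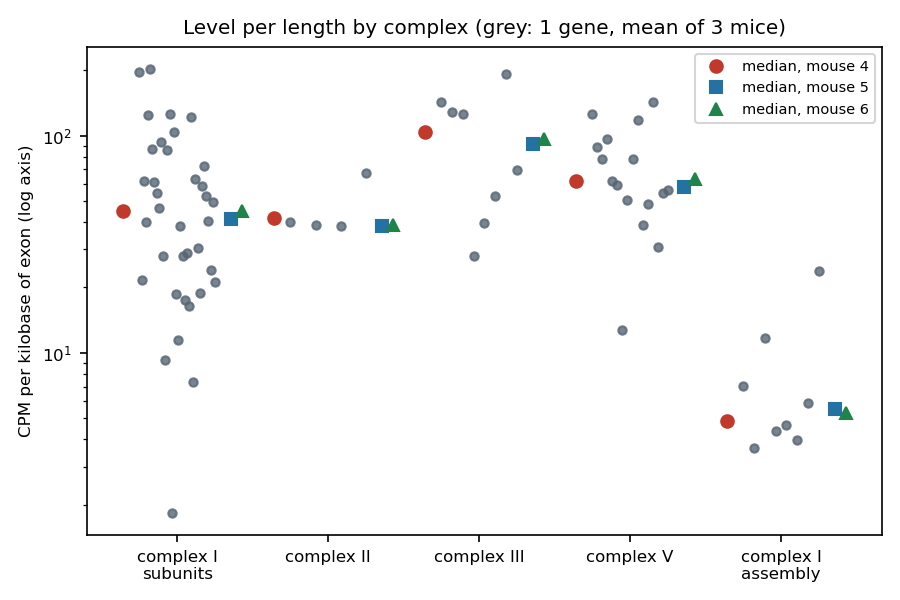
CPM per kilobase of exon (log axis) for each gene as the mean of 3 mice (grey) and the median over genes in each mouse (coloured). Assembly factor medians, 4.85 to 5.53, lie far below the medians of every subunit group, while the subunit groups overlap each other widely. Single genes cross this gap, with the assembly factor Ndufaf8 at 23.9 and the complex I subunit Ndufb2 at 1.84.

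Complex I takes electrons from NADH to ubiquinone. The nuclear core subunits described here belong to the arm that holds the flavin and the iron-sulphur clusters, and had means between 7.34 (Ndufs1) and 52.7 (Ndufs7) CPM per kilobase (22.3 and 92.2 by principal transcript). Ndufv2 was at 106, 102 and 110, and Ndufs7, which lies next to the ubiquinone site, at 92.0, 85.4 and 94.5 CPM. Ndufs3 followed at 68.9, 61.4 and 67.6 CPM. Ndufv1, which binds NADH and the flavin, was at 67.4, 61.9 and 61.1 CPM. Ndufs1, the largest core subunit, was at 60.5, 62.6 and 54.9 CPM, and Ndufs8 at 54.7, 48.1 and 53.2 CPM. Mouse 5 was the lowest for 5 of all 7 core genes (36.8% of all genes tested), and the widest ratio of highest to lowest mouse was 1.14 (Ndufs1).

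The 29 accessory subunits of complex I, which surround the core, ranged far more widely from gene to gene. By the union of exons the highest were Ndufa2 at 202, Ndufa1 at 196 and Ndufb11 at 126 CPM per kilobase (means of 3 mice). By principal transcript Ndufb7 (27.9 by the union) stood level with Ndufa2 at 202, and Ndufa3 at 172, Ndufa6 at 167, Ndufa7 at 161, Ndufb10 at 143 and Ndufc2 at 135 also passed Ndufb11. In CPM, Ndufa2 was at 103, 109 and 135, Ndufa1 at 87.7, 74.7 and 83.9 and Ndufb11 at 112, 119 and 113. Mouse 6 was the highest for Ndufa2, mouse 4 for Ndufa1 and mouse 5 for Ndufb11. Ndufa13, also known as GRIM-19, followed by the union of exons at 124 ± 7.94 CPM per kilobase, then Ndufc2 at 122 ± 4.94 and Ndufb3 at 104 ± 5.46. Between 9.23 CPM per kilobase (Ndufab1, the mitochondrial acyl carrier protein) and 93.0 (Ndufa8) lay Ndufa3, Ndufa5, Ndufa6, Ndufa7, Ndufa9, Ndufa10, Ndufa11, Ndufa12, Ndufb4, Ndufb5, Ndufb6, Ndufb7, Ndufb8, Ndufb9, Ndufb10, Ndufc1, Ndufs4, Ndufs5, Ndufs6 and Ndufv3. Mouse 5 was the lowest for 19 of the 29, against 36.8% of all genes tested.

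Ndufb2 stood apart from the other complex I subunits. It had 423, 364 and 353 counts, or 9.82, 10.1 and 11.1 CPM, and per kilobase it was the lowest of all 75 genes with both lengths. Its gene (ENSMUSG00000002416, mm10 chromosome 6, 39592574 to 39603382, plus strand) shares 7.94% of its exonic bases with other annotated genes, among them Braf on the opposite strand (2034, 1911 and 1420 counts). How reads that fit several genes were counted is not given in the sources used here, and the part of the counting in this low value was not tested. A further complex I gene, Ndufb1, was not a member because GENCODE M21 lists it as the noncoding RNA Ndufb1-ps, and it had 2512, 1986 and 1989 counts.

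Assembly factors build complex I and do not remain in it. Ndufaf3 and Ndufaf4, which act together on the arm that carries the ubiquinone site, were at 19.9, 21.4 and 22.2 and at 16.5, 16.95 and 17.7 CPM. Ndufaf7, a mitochondrial methyltransferase, was at 17.8, 23.5 and 20.8 CPM, and Ndufaf8, the partner of Ndufaf5, at 17.4, 20.3 and 22.0. For both of these genes mouse 4 was the lowest. Ndufaf5 was at 8.29, 8.32 and 8.26 CPM, the narrowest range of all 75 genes (1.01-fold). Ndufaf1 was at 11.4, 9.62 and 10.7, Ndufaf2 at 11.6, 9.40 and 11.8 and Ndufaf6 at 4.94, 4.65 and 5.17 CPM, all lowest in mouse 5. Of Ndufaf2, 65.65% of the exonic bases overlap a gene on the other strand that had 0 to 2 counts. Beyond the naming rule, 19 other assembly factors of complexes I, II, III and V, taken from a list, had a median of 5.75 CPM per kilobase (11.7 by principal transcript). Among them were Uqcc2 at 39.9, 38.6 and 42.4 CPM, Sdhaf2 at 42.5, 41.6 and 40.6 and Lyrm7 at 2.65, 2.24 and 2.11.

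Complex II, succinate dehydrogenase, belongs to both the tricarboxylic acid cycle and the respiratory chain. Sdha, its flavoprotein, was at 170, 166 and 160 CPM, and Sdhb, its iron-sulphur subunit, at 94.8, 82.7 and 83.9. The membrane anchors Sdhc and Sdhd were at 133, 118 and 125 and at 80.4, 83.5 and 85.5 CPM. By the union of exons, Sdha, Sdhb and Sdhc were at 40.1 ± 1.22, 38.9 ± 2.97 and 38.5 ± 2.30 CPM per kilobase, and Sdhd at 67.5 ± 2.06. By principal transcript Sdhb was at 76.3, Sdhd at 67.5, Sdha at 57.0 and Sdhc at 39.5, so the order of the 4 genes depended on the length.

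Complex III passes electrons from ubiquinol to cytochrome c. Its highest genes by the union of exons were the small subunits Uqcrh, Uqcr10 and Uqcr11, at 192, 143 and 128 CPM per kilobase. By principal transcript Uqcrh led at 433, followed by Uqcrb at 205 and Uqcr10 at 192. In CPM, Uqcrh was at 233, 225 and 253, Uqcr10 at 80.4, 79.1 and 90.5, and Uqcr11 at 88.0, 79.4 and 79.5. The core proteins Uqcrc1 and Uqcrc2 were at 132, 104 and 109 and at 108, 95.8 and 98.0 CPM, both highest in mouse 4. The Rieske iron-sulphur protein Uqcrfs1 was nearly level at 70.6, 71.7 and 72.3 CPM, and Uqcrb and Uqcrq stood at 110 ± 6.81 and 127 ± 11.1 CPM. The complex III subunit that the naming rule leaves out, cytochrome c1 (Cyc1), was at 82.3, 67.2 and 69.5 CPM.

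Complex V, ATP synthase, has a catalytic head, a membrane ring of c subunits and a stalk that holds them together. In the head, Atp5a1 was at 414, 386 and 376 CPM and Atp5b at 412, 370 and 345, so that both were highest in mouse 4 and lowest in mouse 6. The subunits gamma (Atp5c1), delta (Atp5d) and epsilon (Atp5e) of the central stalk were at 171, 134 and 144, at 202, 173 and 180, and at 112, 98.9 and 116 CPM. All 3 were lowest in mouse 5, as were 36.8% of all genes tested. Of the peripheral stalk, Atp5f1 was at 245, 243 and 239 CPM, Atp5h (subunit d) at 181, 165 and 175, Atp5o (the oligomycin sensitivity protein) at 119, 104 and 108 and Atp5j (coupling factor 6) at 121, 126 and 118. The small membrane subunits Atp5j2 and Atp5mpl were at 160 ± 15.8 and 66.5 ± 6.99 CPM. By the union of exons, Atp5k at 143, Atp5a1 at 125 and Atp5h at 118 CPM per kilobase led the complex. By principal transcript Atp5l at 365, Atp5e at 259 and Atp5h at 254 led, and Atp5a1 stood at 159. In CPM, Atp5k was at 91.4, 82.1 and 90.4. Subunit g, Atp5l, was at 199.7, 201.2 and 194 CPM.

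The c subunit is made from 3 genes, Atp5g1, Atp5g2 and Atp5g3, whose products differ in the import sequence and are the same once processed. Atp5g3 was at 174, 158 and 180 CPM, Atp5g2 at 85.8, 81.8 and 86.7, and Atp5g1 at 67.2, 57.7 and 62.8. Mouse 5 was the lowest for each of them (36.8% of all genes tested). Of the counts of the 3 genes, Atp5g3 held 53.2, 53.2 and 54.7%, Atp5g2 26.2, 27.5 and 26.3%, and Atp5g1 20.5, 19.4 and 19.0%, and the Wilson half-width was under 1 percentage point in each case. By the union of exons Atp5g3 lay 6.16 ± 0.318-fold above Atp5g1 and 1.55 ± 0.0558-fold above Atp5g2 per kilobase. By principal transcript these ratios were 17.8 ± 0.920 and 2.04 ± 0.0735, since the length of Atp5g3 fell from 2181 to 723 bases and that of Atp5g1 from 4912 to 4715. Atp5g3 led in counts and with both lengths.

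Ndufa4 was first named as a complex I subunit and is now assigned to complex IV. It was at 97.8, 116 and 112 CPM, and its paralogue Ndufa4l2, a gene induced by hypoxia-inducible factor, at 20.2, 20.9 and 15.9. By the union of exons Ndufa4 lay 4.61 ± 0.883-fold above Ndufa4l2 per kilobase, and in mice 4, 5 and 6 the ratio was 3.85, 4.41 and 5.58. By principal transcript it was 8.90 ± 1.71. Ndufa4l2 was lowest in mouse 6 and Ndufa4 in mouse 4.

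The levels of these genes varied little from mouse to mouse. The median ratio of the highest to the lowest mouse was 1.13, against 1.24 for all 17636 genes tested, and the widest was 1.32. None of the 75 genes exceeded 1.5-fold between its highest and lowest mouse, whereas 22.9% of all genes tested did. In pairs of mice, past 1.5-fold on the log2(CPM + 0.5) scale, the count was again 0 in both directions. Of all genes tested, 5.74% were that much higher in mouse 4 than in mouse 5 and 5.22% that much lower. For mouse 4 against mouse 6 the shares were 3.43% higher and 2.91% lower, and for mouse 5 against mouse 6 they were 2.68% and 2.99%. The members also have more counts than most genes, with a median counting error of 1.81% of the mean against 3.76% for all genes tested. Their median coefficient of variation between mice was 6.05%, against 11.2% for all genes, so the spread between mice exceeded counting error for most of them. For 5 genes it did not: Ndufb9, Ndufaf4, Ndufaf5, Ndufaf6 and Uqcrfs1.

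**Figure D3:**
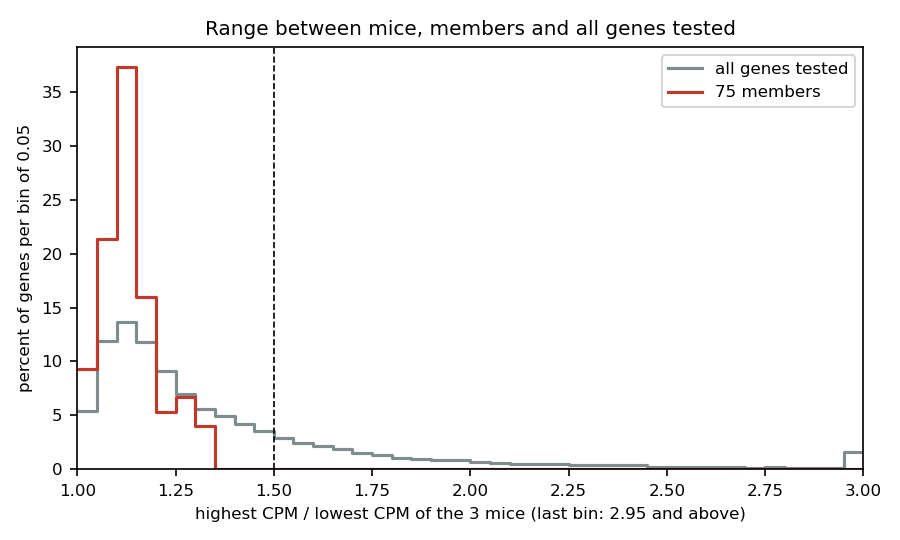
Percent of genes (vertical axis, bins of 0.05) by the ratio of the highest to the lowest CPM of the 3 mice (horizontal axis), for the 75 genes (red) and all genes tested (grey), with a dashed line at 1.5. The red line ends at 1.32, while 22.9% of all genes lie to the right of the dashed line.

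The spread of each gene was tested against the trend of spread with expression level in edgeR's quasi-likelihood model. No member passed at an adjusted p of 0.05 (Benjamini-Hochberg over all genes tested), and 0.0% of all 17636 genes did. With 3 mice and these settings the test passed no gene, whatever its range. The skeletal muscle gene Acta1, which spanned 3.26-fold, had an unadjusted p of 0.00413 in edgeR and an adjusted p of 0.837. The count of 0 members therefore does not show that their spread is small. At an unadjusted p under 0.05 the count was 0 of 75 members, against 4.92% of all genes. DESeq2 marked only 104 of 17636 genes as dispersion outliers, and 0 of the 75 members, a count near that small share. A spread below the trend was found for 60 of the 75 genes, against 55.9% of all genes tested. The smallest unadjusted p in edgeR was 0.188 for Ndufa2, followed by 0.237 for Uqcrc1, 0.251 for Ndufa4l2, 0.255 for Ndufaf7 and 0.261 for Atp5c1, and each adjusted p was 0.986 or more. The range of these genes was 1.27- to 1.32-fold. Atp5s, coupling factor B, spanned 1.30-fold, at 7.64, 9.90 and 8.96 CPM.

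The small differences ran mostly in 1 direction, with mouse 5 lowest. Mouse 5 was the lowest for 47 of the 75 genes, against 36.8% of all genes tested, mouse 4 for 15 (33.3% of all genes) and mouse 6 for 13 (29.9%). Mouse 4 was the highest for 35 (33.4% of all genes), mouse 5 for 10 (36.4%) and mouse 6 for 30 (30.2%). The members were higher in mouse 4 than in mouse 5 for 55 of 75 genes (50.5% of all genes), with a median log2 difference of 0.10 against 0.00 for all genes. They were higher in mouse 5 than in mouse 6 for 18 of 75 (50.1% of all genes; median −0.08 against 0.00). Mice 4 and 6 were alike, with 40 of 75 genes higher in mouse 4 (49.7% of all genes; median 0.02), a sign that turned with library totals as the scale (−0.01). Lowest in mouse 5 were 24 of 36 complex I subunits, 2 of 4 of complex II, 7 of 8 of complex III, 11 of 16 of complex V and 3 of 8 assembly factors. With library totals mouse 5 was the lowest for 43 genes (32.6% of all), and with DESeq2 size factors for 45 (35.7% of all). With 1 mouse on each side these are descriptions with no test, and genes of 1 library are not replicates.

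Markers of several cell types moved between the same mice. Of all genes tested, 36.4% were highest and 36.8% lowest in mouse 5, and 33.4% were highest and 33.3% lowest in mouse 4. Mouse 5 had the highest level of 4 of 4 alveolar type 1 markers (summed 2523, 3520 and 2399 CPM) and 3 of 3 endothelial markers (913, 1263 and 932 CPM). It was also the highest for 5 of 6 alveolar type 2, 4 of 5 ciliated, 4 of 5 pericyte and 3 of 4 club cell markers. It had the lowest level of 6 of 6 cardiac muscle markers (summed 316, 148 and 325 CPM), of 3 of 4 macrophage markers (13150, 10507 and 10656 CPM), and of the 3 adipocyte markers that passed the filter on low counts (53.0, 20.6 and 48.4 CPM). All 8 skeletal muscle markers were highest in mouse 4, with sums of 5201, 1922 and 1649 CPM, as were the 5 squamous epithelium markers tested (375, 140 and 120 CPM). Club cell markers were lowest in mouse 4 for 4 of 4 genes (8989, 24521 and 21709 CPM). Of 4 brown fat markers 2 passed the filter, and the defining genes Ucp1 and Elovl3 had 4, 8 and 1 and 3, 1 and 0 counts. The part of these cell types in the pattern of the members was not tested.

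Forms of respiratory chain genes that are prominent in striated muscle showed wider ranges than the members. Cox6a2, Cox7a1 and Cox8b are the forms of complex IV subunits made in heart and skeletal muscle, and Slc25a4 is the ADP/ATP carrier prominent there. Cox8b was also on the list of brown fat markers. Cox6a2 was at 57.0, 31.5 and 31.98 CPM, Cox7a1 at 10.4, 5.06 and 6.21, Cox8b at 11.0, 4.65 and 6.28, and Slc25a4 at 293, 225 and 201. All 4 were highest in mouse 4 (33.4% of all genes tested), by 1.46- to 2.37-fold over their lowest mouse. Unadjusted p in edgeR was 0.0128 for Cox6a2, 0.0599 for Cox7a1, 0.0360 for Cox8b and 0.114 for Slc25a4, and each adjusted p was 0.955 or more, so none passed. The widespread counterparts had ranges of 1.05- to 1.18-fold. Among them, Cox6a1 was at 213, 200.2 and 213 CPM, Cox7a2 at 114, 113 and 119, Cox8a at 248, 209 and 229 and Slc25a5 at 156, 140 and 146. The members with the widest excess in mouse 4, Atp5c1 and Uqcrc1, were 1.28- and 1.27-fold above their lowest mouse, while Acta1, skeletal muscle actin, was at 1936, 687 and 594 CPM. Whether muscle RNA contributes to the mouse 4 values of the members was not tested.

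**Figure D4:**
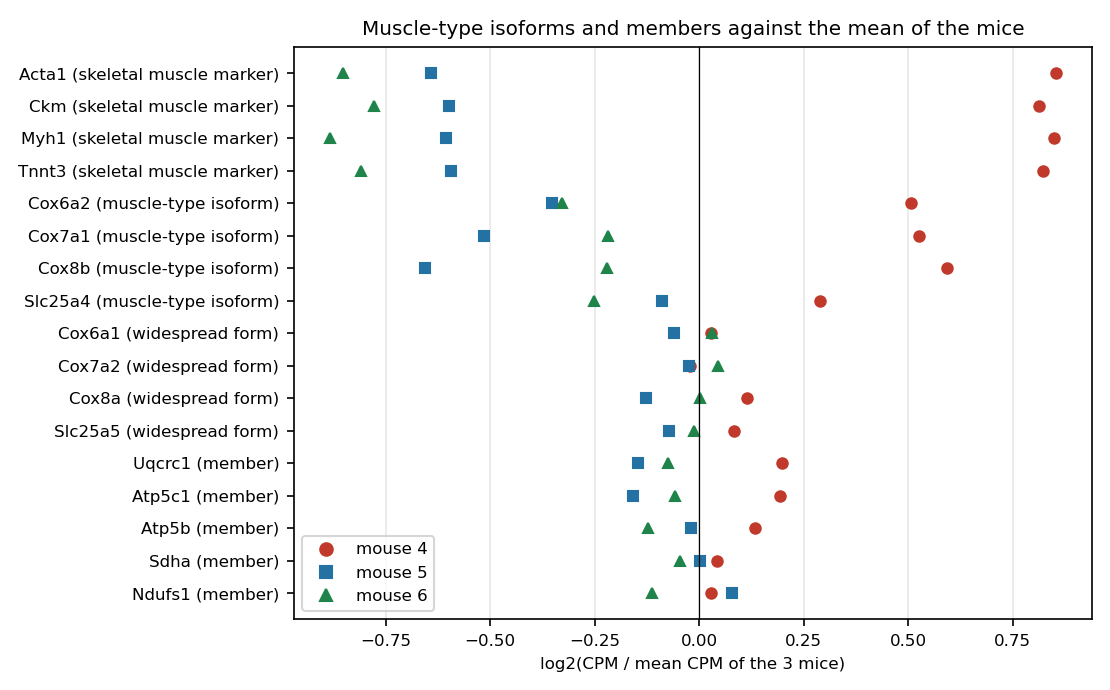
Each symbol is the log2 of a gene's CPM in 1 mouse over its mean in the 3 mice, for 4 skeletal muscle markers, 4 muscle-type isoforms, 4 widespread counterparts and 5 members. Mouse 4 stands to the right for the markers and the muscle-type isoforms, and the mice lie within a narrow band for the widespread forms and the members.

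Other genes of mitochondrial respiration were taken from lists. Of the 17 genes for complex IV subunits and cytochrome c, 0 passed the spread test in edgeR and 2, Cox6a2 and Cox8b, had an unadjusted p under 0.05, and 12 were lowest in mouse 5 (36.8% of all genes). None of the 13 tricarboxylic acid cycle genes passed in edgeR (0 had an unadjusted p under 0.05), and 11 of the 13 were highest in mouse 4 (33.4% of all genes), among them citrate synthase (Cs) at 204, 166 and 183 CPM and Mdh2 at 178, 140 and 137. Ucp2, an uncoupling protein abundant in immune cells, was at 1030, 794 and 955 CPM. Among 14 regulators of mitochondrial genes 0 passed and no common order was seen (5, 5 and 4 genes highest in mice 4, 5 and 6). The coactivator Ppargc1a (PGC-1 alpha) was at 4.64, 4.15 and 3.97 CPM, Nrf1 was at 33.6, 33.3 and 36.7, Gabpa at 31.8, 35.1 and 27.3, Esrra at 68.3, 58.0 and 73.1 and Yy1 at 81.3, 83.7 and 79.9 CPM.

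Nuclear respiratory factor 1, the ETS factor GABP and YY1 are transcription factors known to act on respiratory chain genes, so the promoters were read for their motifs. RefSeq promoter windows on GRCm38.p6, the assembly of mm10, run from 250 bases before to 50 after a gene's start and matched 63 of the 75 genes. Both strands were searched for GCGCA, any base and GCGC in a row (NRF1), for CCGGAAG (ETS) and for AAGATGGC (YY1), none of which contains another. An NRF1 match was present for 18 of 63 members (28.6%), against 10.2% of 11608 protein-coding genes tested and 5.19% of all 27025 genes in the promoter table. A YY1 match was present for 11 members (17.5%), against 4.63% and 3.19%. For ETS the share was 23.8% (15 members) against 17.8% and 9.93%, and for the general CCAAT motif 42.9% against 42.2% and 41.1%. At least 1 of the NRF1, ETS and YY1 motifs was found for 38 of 63 members (60.3%), against 28.7% of the protein-coding genes tested. The median GC content was 59.3% for members and 61.3% for the protein-coding genes tested. A match is a description of letters and not of binding, and the shares were not tested.

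**Figure D5:**
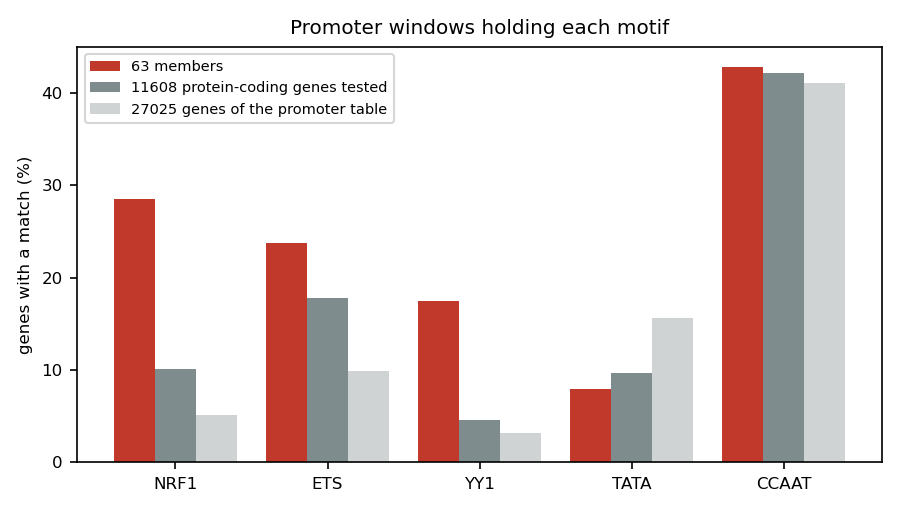
Percent of genes (vertical axis, from 0) whose promoter window holds each motif, for members with an entry (red), protein-coding genes tested (dark grey) and all genes of the promoter table (light grey). The bars for NRF1 (28.6%) and YY1 (17.5%) stand highest above the grey bars, and the CCAAT bars are level at 41.1 to 42.9%. The TATA bar of the members (7.94%) lies below both grey bars.

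By complex, the NRF1 motif was found for 7 of 27 complex I accessory subunits and 0 of 5 core subunits. It was found for 2 of 3 complex II genes and 1 of 5 complex III genes. Within complex V it was found for 1 of 4 genes of the head and central stalk (Atp5c1). The c-ring had 2 of 3 genes with the motif, and the peripheral stalk and membrane subunits 3 of 7. The sequences below lie before the start, outside every exon of GENCODE M21, and are read 5′ to 3′ on the gene's strand with motif letters, or their reverse complement, in capitals. They are shown as examples of where matches lie. Members with 1 promoter window were considered, and those of highest mean CPM with an NRF1 or ETS match in such bases were taken. A YY1 match in such bases was found for none of the members considered. Atp5h (chr11:115419963-115420127, minus strand) holds an NRF1 match that begins 141 bases before the RefSeq start, and Sdha (chr13:74350281-74350308, minus strand) 1 that begins at 55 bases. Uqcrh (chr4:116075072-116075268, minus strand) holds an ETS match at 10 bases and Atp5e (chr2:174464106-174464351, minus strand) one at 102 bases before the start.
Atp5h: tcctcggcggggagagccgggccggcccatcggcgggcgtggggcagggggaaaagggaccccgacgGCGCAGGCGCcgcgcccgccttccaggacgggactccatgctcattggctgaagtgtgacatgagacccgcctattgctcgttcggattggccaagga
Sdha: ggaggggcgtgttGCGCAGGCGCagaat
Uqcrh: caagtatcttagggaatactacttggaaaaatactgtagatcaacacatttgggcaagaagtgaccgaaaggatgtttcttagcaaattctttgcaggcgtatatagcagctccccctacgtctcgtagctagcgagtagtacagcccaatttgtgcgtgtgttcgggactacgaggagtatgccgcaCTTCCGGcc
Atp5e: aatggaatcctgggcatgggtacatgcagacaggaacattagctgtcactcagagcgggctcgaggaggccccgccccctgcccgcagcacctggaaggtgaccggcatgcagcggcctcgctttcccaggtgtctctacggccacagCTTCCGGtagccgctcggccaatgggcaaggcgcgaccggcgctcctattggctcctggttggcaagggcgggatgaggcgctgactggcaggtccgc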

How the data were processed

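Lung RNA of 3 mice was sequenced. Per the labels' protocols, a Direct-zol kit gave the RNA and a Nugen mRNA kit the libraries. Tools named in the submitters' processing notes are bcl2fastq 2.17, Trim Galore 0.6.2 and STAR 2.5.2a, with the build mm10. Which program counted reads, with which gene models and whether by strand, is not given in the sources used here. The authors deposited unnormalized counts for each Ensembl gene. GENCODE M21 matched 53237 of 53342 identifiers. Of the 75 members, 28 share exonic bases with another gene, 4 of them over 25% (Ndufaf2, Atp5o, Ndufb6 and Ndufa13), and without strand such reads cannot be told apart. For Atp5o the overlap includes the second Ensembl entry of that name on the same strand, where strand would not separate reads.

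CPM used TMM factors. Length is the union of annotated exons, or the transcript with the best APPRIS tag as the principal transcript. Genes that passed filterByExpr (17636, with all 75 members) were fitted in edgeR 4.0.16 (R 4.3.3) with an intercept alone, and each residual quasi-dispersion was compared with the trend (F test, upper tail, prior degrees of freedom 3.88). The test was also run on simulated counts, and the outcome is not given here. Alternatives used limma 3.58.1, DESeq2 1.42.0, other scalings, filters and lengths, and each mouse left out. Only the labels say that the mice are separate animals, so p-values measure the spread between these samples. Members, lists and motifs were chosen with earlier results of these data known. Values are given in every mouse for the leading genes of each complex, core and complex II subunits, paralogues, the lowest genes and those of smallest p. The values of 1 member are not reported here. Ndufb2 and Ndufb1-ps were singled out after their values were seen.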

Additional observations from a re-analysis of the deposited data

How the results depend on the processing

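Of 60 alternatives run for the main results, 51 were labelled the same. That label allowed counts within 1.5-fold of the main count and median log2 ratios of the same sign less than 0.044 away. Some of the 51 could not have come out otherwise, such as counts past 2-fold where none passed 1.5-fold. Medians without the filter, which all 75 members passed, and detection counts with a mouse left out were fixed as well. The count of members with a spread above the trend was 0 under each of its 10 alternatives (other scalings, no filter, other dispersion estimates, limma, DESeq2, and without replicate 4, 5 or 6). Without the filter on low counts 629 of 30751 genes passed, and without replicate 4 13 of 17749 did. The prior degrees of freedom of the F test were 3.88 in the main fit, infinite without the filter and 9.59 without replicate 4. With DESeq2 104 of 17636 genes were dispersion outliers. Calls over all genes thus depended on these settings. With so few genes called in any setting, a count of 0 among the 75 members shows nothing particular to them. At the lower of the other fold thresholds tried, which lies below 1.5-fold, 4 members differed for the pair of mice 4 and 5. For mice 4 and 6 the count was 3, and for mice 5 and 6 it was 1, against 0 at 1.5-fold. The share of all genes past that lower threshold is not given here, so these counts cannot be set against a background. With library totals the median log2 ratio of members was 0.0572 between mice 4 and 5 (0.102 with TMM) and turned to −0.0141 between mice 4 and 6 (0.0172 with TMM). Of the 10 pairs of groups in the order of complexes, 7 were kept with no division by length, and 9 with the longest transcript, with means of log2 levels or with principal transcripts, the last an alternative chosen after seeing the data. Leaving out each mouse kept all 10 pairs. No paired analysis was possible because all 3 mice belong to 1 group.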
